A study of Mus musculus with 6 samples.

Results

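Protocadherins, the largest family within the cadherin superfamily, were taken from the count table as every row whose gene symbol begins with Pcdh, a rule that uses names and no measured value. The rule found 32 of 16982 genes. Of these, 20 belong to the Pcdhb cluster and 12 are non-clustered protocadherins. No row carried the symbol of a Pcdha or a Pcdhg gene, and those genes, Pcdhb1 and Pcdhb22 were not analysed here.

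The values come from RNA-seq of 3 wild type (WT) and 3 Rnf20-/- libraries of reprogrammable cells, all on the C57BL/6 background and all at day 3 of reprogramming. The cells were mouse embryonic fibroblasts (MEF) infected with retroviruses for OSKM, that is OCT4, SOX2, KLF4 and C-MYC, the factors that turn somatic cells towards pluripotency. Rnf20 encodes a ubiquitin ligase of histone H2B, and the comparison asks how its loss changes the transcriptome early in reprogramming. The study's methods describe a floxed Rnf20 allele, a ubiquitous tamoxifen-inducible Cre and 4-OH tamoxifen to delete the gene, whereas the labels list both genotypes as untreated. Whether the WT cells carried the Cre or received the drug is not stated, and so a response to either cannot be told apart from the loss of Rnf20. Infected cells were replated on feeder layers of mitomycin-C-treated MEF, and whether feeder RNA was harvested with them is not stated. Nothing states that the 3 libraries of a genotype came from separate cultures. Y-linked genes were at 0 in Rnf20-/- replicates 1 and 3 and not in replicate 2, so the knockout libraries were not all repeats of one culture, whereas the spread between the WT libraries may be technical. In bulk RNA, fewer cells of a type and less RNA per cell cannot be told apart.

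Protocadherins are cell surface proteins whose cadherin repeats bind the same protein on a neighbouring cell. The clustered genes lie side by side in the Pcdha, Pcdhb and Pcdhg arrays, and each neuron is known to express a small, largely random choice of them, by which it recognises its own branches. That choice depends on DNA methylation of the promoters, on the insulator protein CTCF and on cohesin. Non-clustered protocadherins are separate genes, most of them grouped as delta-1 and delta-2 by their repeats and cytoplasmic tails, and they act in cell sorting, migration and axon growth.

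Rnf20 itself was at 107, 107 and 106 CPM (counts scaled by the TMM-normalized library size) in the WT libraries. It was at 18.7, 18.5 and 16.4 CPM in the Rnf20-/- libraries, a log2 fold change of -2.57 ± 0.081 (SE, adjusted p = 0.00016, edgeR quasi-likelihood test). The libraries held 20545442 to 21746898 counts, so that 3 counts, the floor used for low genes, equal 0.142 to 0.143 CPM. Rnf20-/- replicate 3 stood apart from the other knockout libraries: the chi-square statistic per gene was 92.4 and 101 between it and its 2 partners, against 6.04 to 8.92 in the other pairs within a genotype. Its summed macrophage markers stood at 235 CPM, against 47.5 to 98.2 CPM in the other 5 libraries. Most of that sum was Lyz2 at 159 CPM, and none of the 8 markers was called between genotypes. All but C1qa and Cd68 had their highest level in that library. C1qa was lowest there at 3.71 CPM, and Cd68 at 8.57 CPM lay within the WT range. The fibroblast markers, all 10 of which had counts, summed to 30864 to 33627 CPM in WT and to 21878 to 40603 CPM in the knockout. Of these 10, 2 fell at an adjusted p under 0.05 and 0 rose, beside 16.6% and 16.4% of all genes tested. They were Thy1 (log2 fold change -1.11, adjusted p = 0.0025, edgeR) and Pdgfra (-1.22, adjusted p = 0.019, edgeR). The pluripotent cell markers summed to at most 5.17 CPM in any library.

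A fold change is given below as log2 of Rnf20-/- over WT from the quasi-likelihood fit of edgeR over 13386 genes, with p-values adjusted over all of them. The threshold for a call was an adjusted p of 0.05, whatever the size of the change. The low-count filter of the fit kept 26 of the 32 protocadherins, 15 Pcdhb and 11 non-clustered. Pcdh12, Pcdhb6, Pcdhb9, Pcdhb10, Pcdhb12 and Pcdhb13 were too low to be tested. Of the 26, 5 fell and 3 rose in the knockout. Over all genes tested, 16.6% fell and 16.4% rose, and the share of protocadherins that fell or rose was near these shares. The 5 that fell were Pcdhb17, Pcdhb18, Pcdhb21, Pcdh8 and Pcdh15, and the 3 that rose were Pcdh7, Pcdh17 and Pcdh19. Whether the Pcdhb and the non-clustered genes differed in this was not tested. At the thresholds of the study, which ask for an FDR under 0.01, a change of more than 1 on the log2 scale in either direction and an FPKM above 1, read here as the mean of either genotype, none of the 26 was called by edgeR's quasi-likelihood test, against 3.59% of all genes. At an unadjusted p under 0.05 the same test had 13 of the 26, beside 45.6% of all genes. DESeq2 and edgeR's exact test each called 1, Pcdh17, at the thresholds of the study, with a mean FPKM of 0.619 in WT and 1.42 in the knockout.

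**Figure D1:**
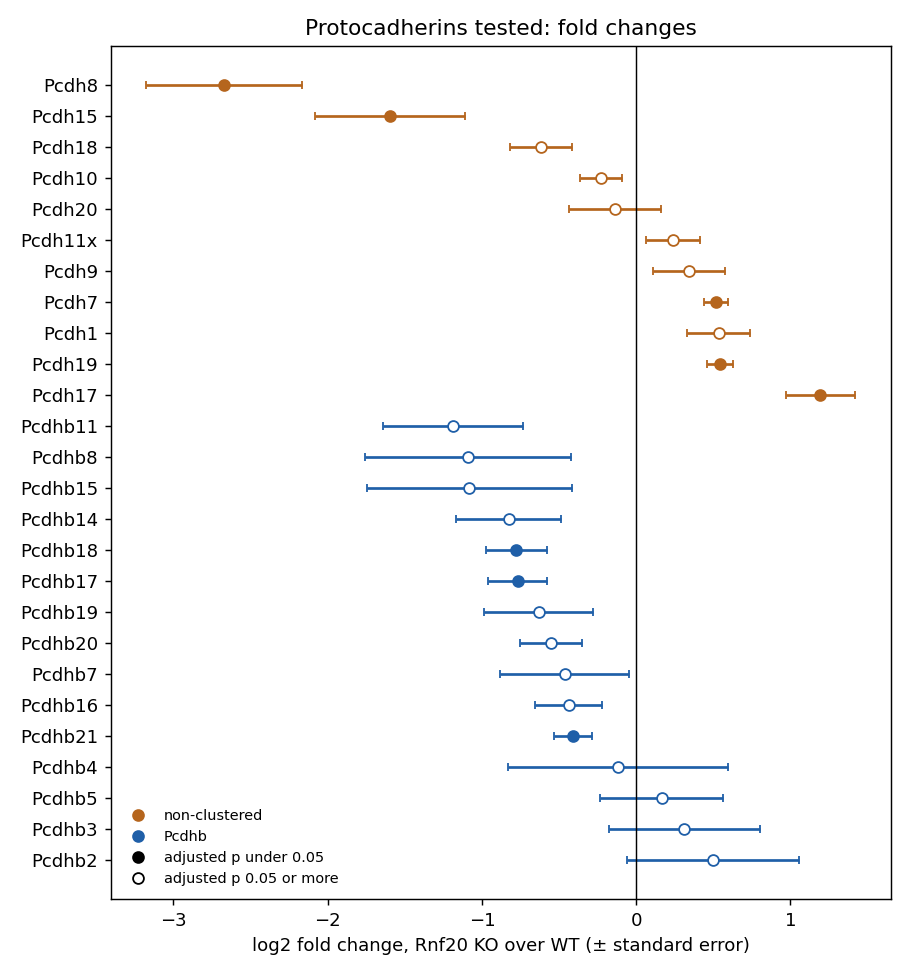
Log2 fold change of Rnf20-/- over WT (x axis) with its standard error for the 26 protocadherins tested (y axis), non-clustered genes in brown above and Pcdhb genes in blue below, each group sorted by its value. Filled points mark an adjusted p under 0.05. The 3 filled Pcdhb points all lie left of 0, and the 5 filled non-clustered points lie on both sides, from -2.67 for Pcdh8 to 1.20 for Pcdh17.

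The level of a gene in relation to another is given per length, as TMM-normalized CPM per kilobase (RPKM) with the gene lengths deposited by the authors. On this scale Pcdh18 came first in WT at a level of 15.5 ± 0.027 RPKM (SD, n = 3), followed by Pcdh7 at 12.1 ± 0.86 RPKM and Pcdh19 at 10.1 ± 0.25 RPKM. The libraries of neighbours in this order did not overlap down to Pcdh10, the fourth, at 4.71 ± 0.53 RPKM. In the knockout Pcdh7 came first at 17.3 ± 0.52 RPKM, followed by Pcdh19 at 14.7 ± 1.26 RPKM, Pcdh18 at 10.1 ± 2.92 RPKM and Pcdh10 at 4.02 ± 0.62 RPKM. In the FPKM deposited by the authors, Pcdh7 came first in both genotypes, at a mean level of 18.9 FPKM in WT and 27.6 in the knockout, and Pcdh18 stood at 17.3 FPKM in WT and 11.4 in the knockout. The order of Pcdh7 and Pcdh18 in WT thus turns with the scale, while Pcdh19 at 13.6 FPKM and Pcdh10 at 6.63 FPKM followed them in WT on both scales. Below these 4 genes lay Pcdhb17 at 1.5 ± 0.24 RPKM and Pcdh1 at 1.48 ± 0.17 RPKM in WT, and their libraries overlapped. In FPKM these places were taken by Pcdhb21 at 3.14 and Pcdh9 at 2.87 in WT, above Pcdh1 at 1.85 and Pcdhb17 at 1.84. Most genes further down the order in RPKM overlapped with the next one, ending with Pcdhb6 at 0.025 ± 0.013 RPKM and Pcdh12 at 0.0028 ± 0.0049 RPKM in WT. The deposited lengths are not always those of the GENCODE M21 annotation: that of Pcdh9 was 4.10 times and that of Pcdhb21 2.28 times the summed exons there, whereas those of Pcdh15 and Pcdh10 were 0.388 and 0.518 times, and the RPKM and place of these 4 genes depend on the length used.

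The 4 delta-1 protocadherins, Pcdh1, Pcdh7, Pcdh9 and Pcdh11x, all passed the filter and had positive fold changes. Of them 1 was called, Pcdh7, beside 16.4% of all genes tested that rose. Pcdh7 (ENSMUSG00000029108, GRCm38 chr5:57717967-58133230, plus strand), also known as BH-protocadherin, is an adhesion protein of brain and heart. It was at 115, 103 and 101 CPM in the WT libraries and at 156, 154 and 147 CPM in the Rnf20-/- libraries. Every knockout library lay above every WT library, and the spread within a genotype was small beside the step between them. Pcdh7 rose by 0.52 ± 0.076 on the log2 scale (SE, adjusted p = 0.0060, edgeR), and it was called with each of the 6 libraries left out in turn. Of its exons, 2235 bases overlap 4932441J04Rik on the opposite strand, and whether the counting used the strand is not stated.

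Pcdh1, an adhesion protein known from airway epithelium, was at 9.89, 11.5 and 12.5 CPM in WT and at 15.9, 20.8 and 12.4 CPM in the knockout. Rnf20-/- replicate 3 fell within the WT range, while the other knockout libraries lay above it. The log2 fold change was 0.53 ± 0.20 (SE, adjusted p = 0.085, edgeR), and without Rnf20-/- replicate 3 it was 0.70 with an adjusted p of 0.0023 from edgeR.

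Pcdh9, a delta-1 protocadherin abundant in the nervous system, also had 2 knockout libraries above WT. Its level was 31.9, 26.5 and 25.9 CPM in WT and 41.2, 42.5 and 23.2 CPM in the knockout, so that Rnf20-/- replicate 3 was the lowest of all 6. The log2 fold change was 0.34 ± 0.23 (SE, adjusted p = 0.28, edgeR), and without that library it was 0.58 with an adjusted p of 0.00073 from edgeR. X-linked Pcdh11x was at 4.71, 4.89 and 3.89 CPM in WT and at 5.82, 5.13 and 5.00 CPM in the knockout. The genotypes did not overlap, yet the step between the nearest libraries was small. The log2 fold change was 0.24 ± 0.17 (SE, adjusted p = 0.32, edgeR) and was called with no library left out. The summed CPM of the 4 delta-1 genes was 161, 146 and 143 in WT and 219, 222 and 188 in the knockout, a log2 ratio of means of 0.48.

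Of the 5 delta-2 protocadherins, Pcdh8, Pcdh10, Pcdh17, Pcdh18 and Pcdh19, 2 rose, 1 fell and 2 were not called. Over all genes tested, 16.4% rose and 16.6% fell, and 5 genes are too few to be set against these shares. The summed CPM of the 5 delta-2 genes was 237, 239 and 234 in WT and 275, 267 and 223 in the knockout. The sum thus overlapped between genotypes, with the knockout libraries on both sides of the WT libraries, and the log2 ratio of means was 0.11. Pcdh19 (ENSMUSG00000051323, GRCm38 chrX:133582860-133688987, minus strand), the X-linked gene known from an epilepsy of girls, was at 107, 102 and 104 CPM in WT and at 156, 163 and 138 CPM in the knockout. All 3 knockout libraries lay well above the WT libraries, which were close together. Pcdh19 rose by 0.54 ± 0.082 on the log2 scale (SE, adjusted p = 0.0064, edgeR), and it was called with each of the 6 libraries left out in turn.

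As Pcdh19 and Pcdh11x lie on the X chromosome, Y-linked genes were read beside them. Ddx3y had 0 counts in Rnf20-/- replicates 1 and 3 and stood at 94.4 to 128 CPM in the other 4 libraries, and Kdm5d was likewise at 0 in those 2 libraries and at 37.0 to 46.2 CPM in the others. Rnf20-/- replicate 2, the knockout library with Y-linked counts, had the highest level of Pcdh19 of all 6 libraries at 163 CPM. Its Pcdh11x level of 5.13 CPM was also above the 3 WT libraries. No row carried the symbol Xist, so sex was read from Y-linked counts alone. All 3 WT libraries had Y-linked counts and 2 of the 3 knockout libraries had none. Read in this way, the sex of the cells went partly with genotype, and its part in the values of both genes was not tested.

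Pcdh17 (ENSMUSG00000035566, GRCm38 chr14:84443563-84539002, plus strand), which is known for the bundling of axons during extension, was at 6.47, 5.32 and 5.03 CPM in WT and at 10.5, 11.1 and 17 CPM in the knockout. The lowest knockout library lay well above the highest WT library, and Rnf20-/- replicate 3 was the highest. Pcdh17 rose by 1.20 ± 0.22 on the log2 scale (SE, adjusted p = 0.011, edgeR), the largest rise among the protocadherins tested. The call was lost without WT replicate 2 or 3, where edgeR gave an adjusted p of 0.054 and 0.058, and the log2 fold change was 0.95 to 1.33 when each library was omitted in turn.

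Pcdh8 (ENSMUSG00000036422, GRCm38 chr14:79766775-79771312, minus strand), also called arcadlin or paraxial protocadherin, acts in the segmentation of mesoderm and at synapses. It had 44, 19 and 22 counts in WT and 6, 3 and 4 counts in the knockout, or 2.09, 0.90 and 1.04 CPM against 0.29, 0.14 and 0.19 CPM. WT replicate 1 was the highest, and the genotypes did not overlap. Pcdh8 fell by 2.67 ± 0.51 on the log2 scale (SE, adjusted p = 0.011, edgeR), and it was called with each of the 6 libraries left out, between -2.97 and -2.21. Its counts are few, 1 knockout library held no more than the floor of 3 counts, and 436 bases of its exons overlap Gm9748 on the opposite strand. Pcdh8 passed the low-count filter through its WT counts alone, and with a CPM over 1 in 3 libraries as the filter it was not tested.

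The bases just upstream of the start are shown for the 3 called genes whose window lies outside their own annotated transcripts, which leaves out Pcdh7 and Pcdh15. CG pairs are marked because methylation of promoters is a known layer of control of clustered protocadherins. The genes shown are non-clustered, and no Pcdhb gene had a window, so that control is not known to apply to them here. These are 100-base windows from RefSeq on GRCm38.p6, 5′ to 3′ on the strand of the gene, with each CG pair in capitals.
Pcdh17, chr14:84443463-84443562, plus strand: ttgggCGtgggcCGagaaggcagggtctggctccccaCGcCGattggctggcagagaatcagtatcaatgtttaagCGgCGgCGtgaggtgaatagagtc
Pcdh19, chrX:133688994-133689093, minus strand: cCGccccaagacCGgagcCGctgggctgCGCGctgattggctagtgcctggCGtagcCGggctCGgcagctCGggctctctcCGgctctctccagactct
Pcdh8, chr14:79771313-79771412, minus strand: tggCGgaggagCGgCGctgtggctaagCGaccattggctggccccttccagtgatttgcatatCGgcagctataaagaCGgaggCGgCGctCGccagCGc
The Pcdh19 window lies within the gene Gm26851 and the Pcdh8 window within Gm9748, both on the opposite strand. Over the full 250 bases upstream, Pcdh17 held 21 CG pairs, Pcdh19 held 16 and Pcdh8 held 11. The median over 32851 such windows was 6, and 16.3%, 25.4% and 35.6% of all windows held as many as Pcdh17, Pcdh19 and Pcdh8 or more. Windows were at hand for 9 of the 32 protocadherins. Of these, Pcdh18 had the most with 23 pairs and Pcdh20 the fewest with 3. The number of CG pairs is a property of the reference, and methylation was not measured in these libraries.

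Pcdh18, which binds the adaptor Dab1, was at 86.3, 86.6 and 86.4 CPM in WT. It was at 69.9, 60.9 and 38.4 CPM in the knockout, below every WT library in each case and lowest in Rnf20-/- replicate 3. The log2 fold change was -0.62 ± 0.20 (SE, adjusted p = 0.057, edgeR). It passed the threshold without Rnf20-/- replicate 3, where the value was -0.40 with an adjusted p of 0.0010 from edgeR, and without replicate 1, with an adjusted p of 0.033. DESeq2 and edgeR's exact test gave adjusted p-values of 0.017 and 0.025. Pcdh10, which recruits the actin regulating WAVE complex, was at 35.2, 43.7 and 37.5 CPM in WT and at 38.9, 31.5 and 29.0 CPM in the knockout. The genotypes overlapped, with a log2 fold change of -0.23 ± 0.14 (SE, adjusted p = 0.24, edgeR).

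Of the remaining non-clustered genes, Pcdh15 (ENSMUSG00000052613, GRCm38 chr10:73099342-74649737, plus strand) encodes a part of the tip link of hair cells. It was at 1.71, 2.56 and 1.8 CPM in WT and at 0.95, 0.81 and 0.24 CPM in the knockout. All 3 knockout libraries lay below the WT libraries, and Rnf20-/- replicate 3 was the lowest. Pcdh15 fell by 1.6 ± 0.49 on the log2 scale (SE, adjusted p = 0.045, edgeR), and the call held upon the omission of 2 of the 6 libraries, with adjusted p-values between 0.017 and 0.15 over the 6 omissions. Its counts were 36, 54 and 38 in WT and 20, 17 and 5 in the knockout, enough for the low-count filter in WT but not in the knockout. The call was lost with no filter on counts and with a block for the replicate number, where edgeR gave an adjusted p of 0.054 and 0.066.

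Pcdh20 was at 5.32, 5.46 and 6.31 CPM in WT and at 5.44, 7.03 and 3.10 CPM in the knockout, with the highest and the lowest library both in the knockout. Its log2 fold change was -0.14 ± 0.30 (SE, adjusted p = 0.75, edgeR) and turned to 0.13 without Rnf20-/- replicate 3. Pcdh12, also called VE-cadherin-2 and known from endothelium and placenta, had 1, 0 and 0 counts in WT and 6, 5 and 6 counts in the knockout. The knockout libraries lay above the WT libraries, but the gene was too low for the filter. The ratio of the summed counts was 17 (95% exact binomial interval 2.67 to 712, counting error only). With no filter on counts edgeR gave an adjusted p of 0.037. The 8 endothelial markers together summed to 63.3 to 69.5 CPM in WT and to 35.1 to 72.9 CPM in the knockout, mostly through Tek, and none of the 3 that could be tested was called. Of the 8, chosen for naming after their values were seen, every knockout library lay above every WT library in 2, Pecam1 (at most 0.095 CPM in WT and at least 0.47 CPM in the knockout) and Vwf (at most 0.24 and at least 0.38 CPM). It lay below in 1, Erg (at least 10.3 and at most 6.36 CPM), and the genotypes overlapped in the other 5, with Emcn at 0 in 5 of the 6 libraries. Over all genes tested, every knockout library lay above WT in 26.6% and below in 28.2%. The part of endothelial cells in the Pcdh12 counts was not tested.

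**Figure D2:**
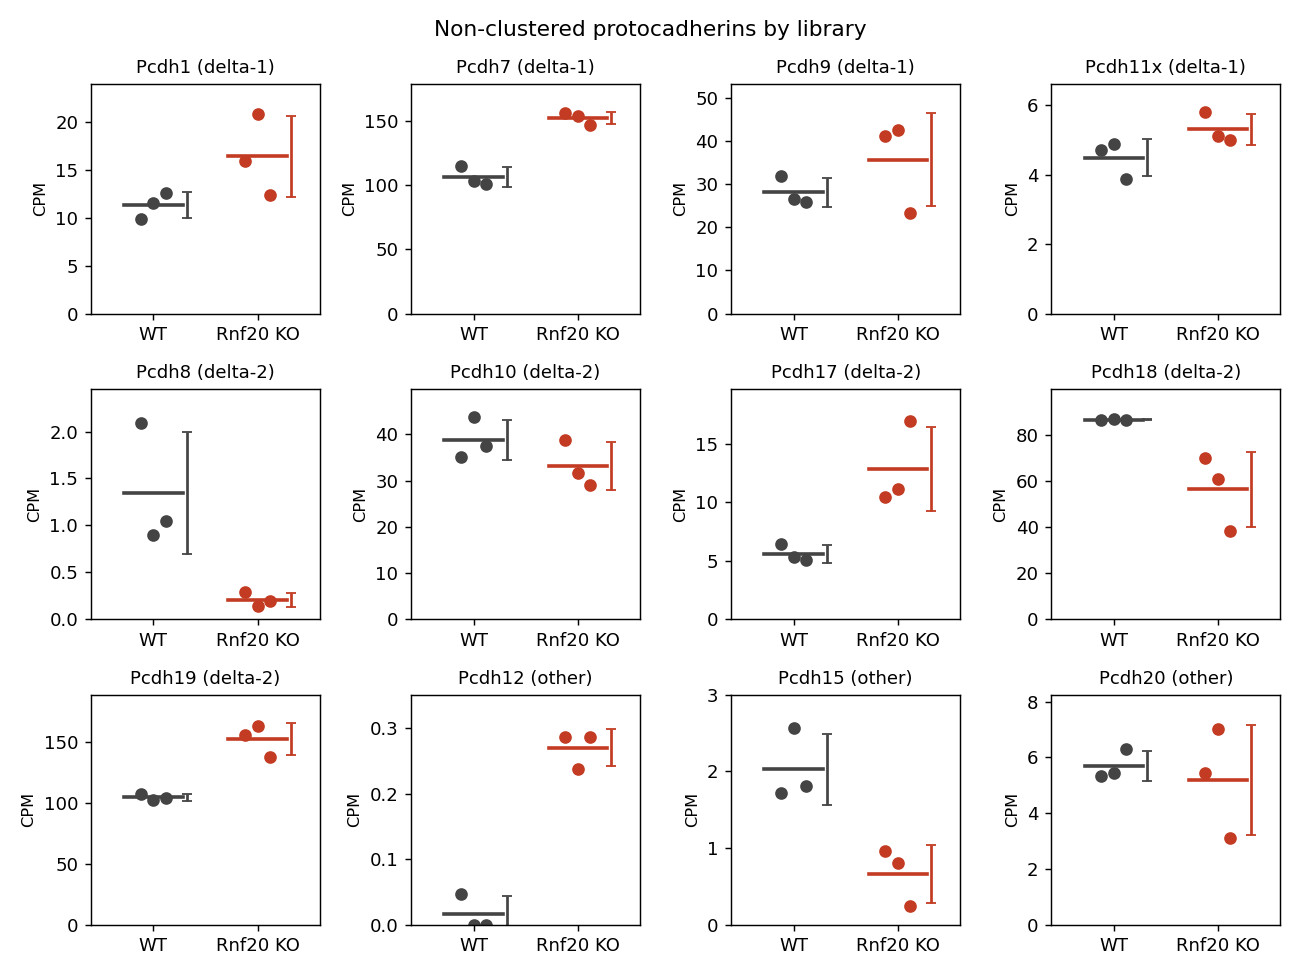
Level in CPM (y axes, from 0) of the 12 non-clustered protocadherins in the 3 WT (grey) and 3 Rnf20-/- (red) libraries, 1 panel per gene, with the mean as a line and the SD as a bar, and within a genotype the replicates in the order 1 to 3. The genotypes do not overlap for Pcdh7, Pcdh11x, Pcdh12, Pcdh17 and Pcdh19, which are higher in the knockout, nor for Pcdh8, Pcdh15 and Pcdh18, which are lower.

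Of the 11 non-clustered genes tested, 4 had all knockout libraries above all WT libraries and 3 had them all below, against 26.6% and 28.2% of all genes tested. The summed CPM of the 12 non-clustered protocadherins was 406, 393 and 385 in WT and 501, 497 and 414 in the knockout, where each library lay above the WT range. The log2 ratio of means was 0.25, between 0.21 and 0.34 with a library left out. Pcdh7 and Pcdh19 rose in this sum while Pcdh18 was lower. The median log2 fold change of the 11 tested genes was 0.24, with 6 positive and 5 negative values, beside a median of -0.00032 over all genes tested.

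The 20 Pcdhb genes lie in a row on the plus strand of chromosome 18, within 223.5 kb (GRCm38 chr18:37294812-37518325), and 17 of them consist of a single exon. Each encodes a whole protein of its own, without the shared 3′ exons of the Pcdha and Pcdhg arrays. Most were barely expressed. The 14 genes at the 5′ side, Pcdhb2 to Pcdhb15, together held 19.3% of the summed Pcdhb CPM in WT, and the last 6, Pcdhb16 to Pcdhb21, held 80.7%, a division made after the values were seen. In the knockout these shares were 19.6% and 80.4%. The log2 ratio of knockout over WT was -0.53 for the 14 genes and -0.56 for the last 6. The log2 fold changes of single genes among those tested ran from 0.50 ± 0.56 for Pcdhb2 (SE, adjusted p = 0.51, edgeR) to -1.19 ± 0.45 for Pcdhb11 (SE, adjusted p = 0.086, edgeR). Neither was called, and both had few counts, 4 to 15 a library for Pcdhb2 and 4 to 23 for Pcdhb11.

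**Figure D3:**
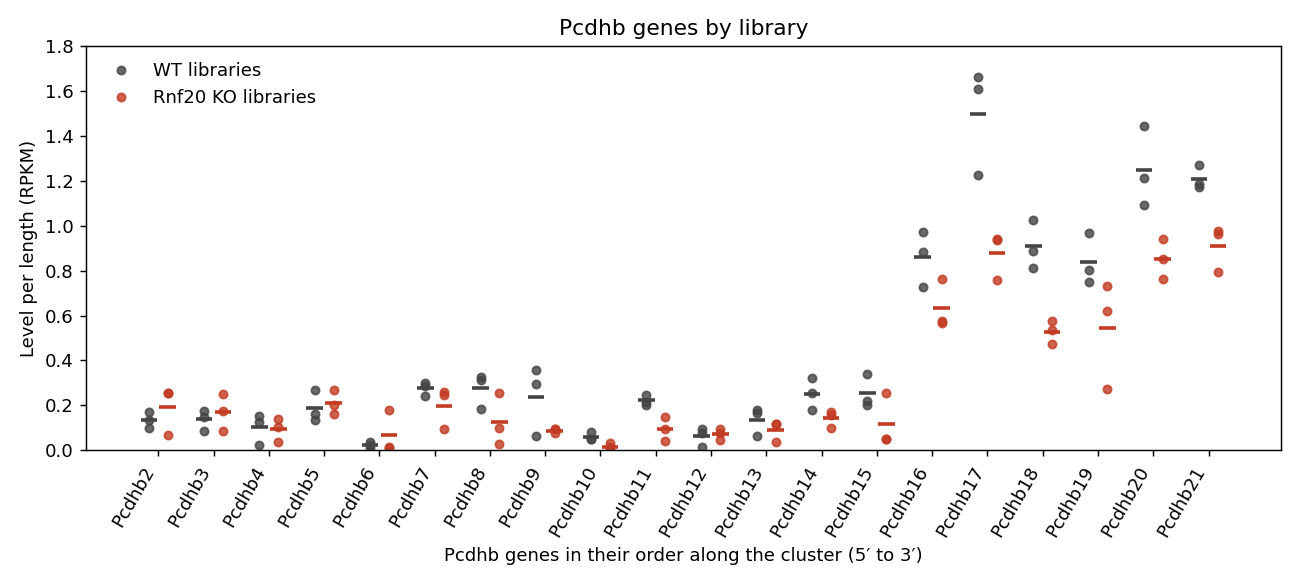
Level per length (y axis, RPKM) of the 20 Pcdhb genes in their order along the cluster (x axis), with WT libraries in grey, Rnf20-/- libraries in red and the means as short lines. The genes from Pcdhb16 onwards stand above the rest in both genotypes, and all knockout points of Pcdhb17, Pcdhb18, Pcdhb19, Pcdhb20 and Pcdhb21 lie below the WT points.

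The summed CPM of all 20 Pcdhb genes was 50.1, 48.2 and 48.4 in the WT libraries and 36.2, 36.8 and 27.0 in the Rnf20-/- libraries. All knockout libraries lay below WT, and Rnf20-/- replicate 3 was the lowest. The mean of the knockout, 33.3 ± 5.47 CPM (SD, n = 3), was 68.1% of that of WT, 48.9 ± 1.05 CPM, a log2 ratio of -0.55. It was -0.42 without Rnf20-/- replicate 3 and reached -0.63 with another library left out. A sum over members carries no test here.

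Of the 15 Pcdhb genes tested, 3 fell (Pcdhb17, Pcdhb18 and Pcdhb21), none rose and 12 were not called by edgeR. This is a share near the 16.6% of all genes that fell. In 7 of the 15 every knockout library had a lower value than every WT library, beside 28.2% of all genes tested, and in none did they all lie above. The log2 fold changes ranged from -1.19 to 0.50 with a median of -0.55, and 12 of 15 were negative. Of the negative ones, Pcdhb7, Pcdhb8, Pcdhb11 and Pcdhb15 had enough counts for the low-count filter in WT but not in the knockout. Pcdhb11, at -1.19, had 23, 19 and 20 counts in WT and 4, 14 and 9 in the knockout. With a CPM over 1 in 3 libraries as the filter, none of them was tested. The median and the counts of negative and of separate genes thus rest partly on genes admitted through WT. Neighbouring genes of an array are not independent replicates, and reads can be shared where the coding sequences of Pcdhb genes are alike, so values of single members carry that uncertainty.

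Pcdhb21 (ENSMUSG00000044022, GRCm38 chr18:37513621-37518325) had the highest count of the cluster, at 12.6, 12.7 and 13.7 CPM in WT and 10.5, 10.4 and 8.53 CPM in the knockout. The genotypes did not overlap, and Rnf20-/- replicate 3 was the lowest. Pcdhb21 fell by 0.41 ± 0.12 on the log2 scale (SE, adjusted p = 0.044, edgeR). The call held upon the omission of 1 of the 6 libraries, Rnf20-/- replicate 3, and edgeR's exact test gave an adjusted p of 0.052. The exons of its annotated neighbour Pcdhb22 overlap 455 of its bases, and since the deposited length exceeds the annotated one, whether the row also holds reads of Pcdhb22 is not known.

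Pcdhb17 (ENSMUSG00000046387, GRCm38 chr18:37484795-37489454) was at 5.70, 7.5 and 7.73 CPM in WT and at 4.39, 4.37 and 3.52 CPM in the knockout. The WT libraries spread more widely than those of the knockout and lay above them throughout. Pcdhb17 fell by 0.77 ± 0.19 on the log2 scale (SE, adjusted p = 0.026, edgeR), with adjusted p-values from 0.015 to 0.10 with a library left out, of which 3 of 6 were calls. Pcdhb18 (ENSMUSG00000048347, GRCm38 chr18:37489465-37494505), the next gene along the cluster, was at 4.47, 5.17 and 4.08 CPM in WT and at 2.91, 2.71 and 2.38 CPM in the knockout. Here too no libraries overlapped. Pcdhb18 fell by 0.78 ± 0.20 on the log2 scale (SE, adjusted p = 0.027, edgeR), a call upon the omission of 2 of the 6 libraries.

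Pcdhb19, among the 3 Pcdhb genes with the highest counts, was at 6.89, 5.36 and 5.74 CPM in WT and at 4.44, 5.22 and 1.95 CPM in the knockout. The genotypes did not overlap by a narrow margin, and Rnf20-/- replicate 3 lay far below the other 5 libraries. The log2 fold change was -0.63 ± 0.35 (SE, adjusted p = 0.21, edgeR), and -0.31 without that library. The 5 Pcdhb genes left out of the test had at most 1.09 CPM in any library, and among these 5 the genotypes were separate in Pcdhb10 alone, with lower values in the knockout.

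Markers of neurons, the cells in which the Pcdhb genes are best known, were read beside them. The 9 of 10 neuron markers with a row summed to 157 to 163 CPM in WT and to 67.5 to 136 CPM in the knockout, lowest in Rnf20-/- replicate 3. Most of that sum was Stmn2 and Map2, and of the 4 neuron markers tested only Map2 was called (-0.79, adjusted p = 0.045, edgeR). Syt1 was at 9.79 to 13.5 CPM in WT and 4.29 to 9.78 CPM in the knockout, and Dcx at 1.19 to 1.99 and 0.19 to 1.34 CPM. Elavl4 was at most 0.997 CPM, and Rbfox3, Elavl3 and Neurod1 were at most 0.285 CPM in any library. Snap25 went the other way, at most 0.095 CPM in WT and at least 0.19 CPM in the knockout. The 10 markers of glia and neural crest summed to 216 to 237 CPM in WT and to 316 to 410 CPM in the knockout, mostly through Nes, the 1 of 8 tested that was called (0.77, adjusted p = 0.0049, edgeR). The part of such cells in the protocadherin values was not tested.

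**Figure D4:**
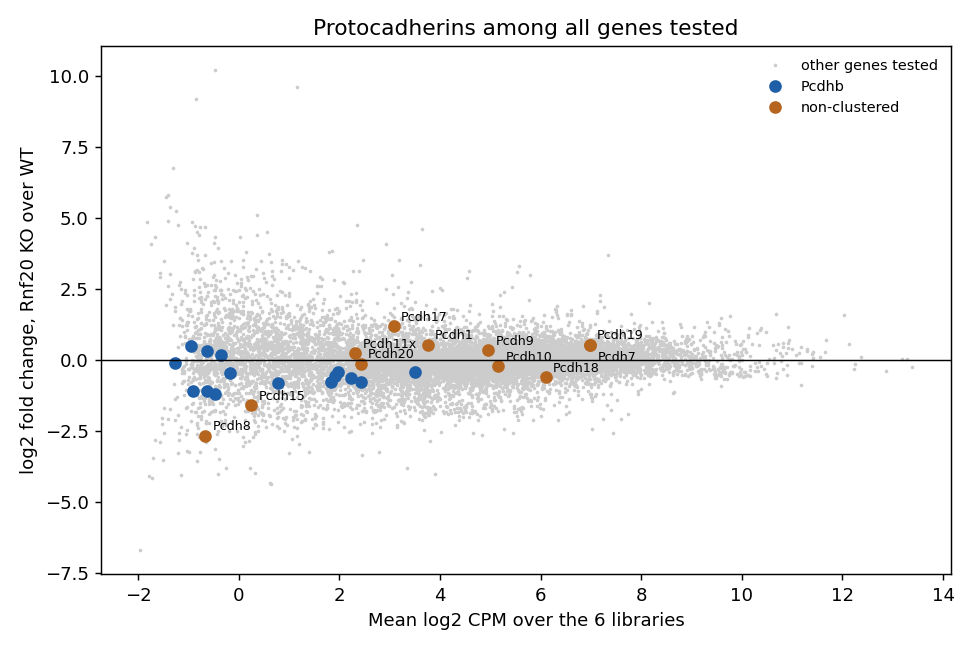
Log2 fold change of Rnf20-/- over WT (y axis) against the mean log2 CPM over the 6 libraries (x axis) for the genes tested, with non-clustered protocadherins in brown and named, Pcdhb genes in blue and all other genes in grey. Pcdh7 and Pcdh19 lie at the right, among abundant genes, while Pcdh8 with -2.67 and most Pcdhb genes lie at the left, where the spread of fold changes is wide.

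Around the cluster, 30 other genes with a row lie within 1 Mb of the Pcdhb genes, and 27 were tested. Of these 4 fell (14.8%) and 6 rose (22.2%), with a median log2 fold change of 0.097, beside -0.55 for the Pcdhb genes. That Pcdhb median includes genes that passed the low-count filter through their WT counts alone. Among 292 single-exon protein-coding genes outside the family that were tested, 16.1% fell and 14.7% rose, and their median was 0.022. No test of these differences was made.

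A row within the same region, Gm37013 (ENSMUSG00000102836, GRCm38 chr18:36969916-37833296), was singled out after its values were seen. In the annotation it is a readthrough transcript of 3 exons whose 313 bases include 222 shared with Pcdha6 and 91 shared with each of 22 Pcdhg genes. It was at 584, 550 and 580 CPM in WT and at 605, 613 and 615 CPM in the knockout. The knockout libraries all lay above the WT libraries by a small margin, and the log2 fold change was 0.10 ± 0.066 (SE, adjusted p = 0.29, edgeR). The deposited length of 5888 bases is far above the 313 bases annotated, and the gene model behind it is not stated. Whether the row holds reads of the Pcdha or Pcdhg arrays is not known.

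Genes known to control the clusters, by insulation, cohesin, DNA methylation or repressive chromatin, were taken as a list of 30, of which 29 were tested. Of these 9 fell in the knockout, none rose and 20 were not called by edgeR, beside 16.6% and 16.4% of all genes, with a median log2 fold change of -0.35. At an adjusted p under 0.05, DESeq2 and the exact test each had 1 that rose. Without WT replicate 1, 2 or 3 the count was 2, 1 and 2, where 7.31%, 6.13% and 5.17% of all genes fell. Without Rnf20-/- replicate 3 it was 15, where 24.2% of all genes fell.

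Uhrf1, which guides DNA methylation to newly copied DNA, was at 97.0, 86.2 and 89.8 CPM in WT and at 38.0, 32.9 and 15.5 CPM in the knockout. It fell by 1.66 ± 0.30 on the log2 scale (SE, adjusted p = 0.010, edgeR), a call with each library left out. Its partner Dnmt1, the maintenance methyltransferase, fell by 1.33 ± 0.35 (SE, adjusted p = 0.029, edgeR), from 210, 217 and 219 CPM in WT to 112, 105 and 40.8 CPM. Tet1, which oxidises methylated cytosine, fell by 1.29 ± 0.39 (SE, adjusted p = 0.043, edgeR). The de novo methyltransferase Dnmt3b fell by 1.0 ± 0.30 (SE, adjusted p = 0.042, edgeR), and the cohesin subunit Smc1a by 0.86 ± 0.19 (SE, adjusted p = 0.019, edgeR). In all 5 genes every knockout library lay below every WT library, with the lowest level in Rnf20-/- replicate 3. The calls of Dnmt1, Tet1, Dnmt3b and Smc1a were lost without any 1 of the WT libraries, those of Tet1 also without Rnf20-/- replicate 1 or 2 and that of Dnmt3b also without replicate 2. Ctcf, named outside the rule for its known role, had a log2 fold change of -0.35 ± 0.11 (SE, adjusted p = 0.054, edgeR).

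The other list held 30 partners and proteases of protocadherins, all tested. Of these 7 rose, 1 fell and 22 were not called by edgeR, beside 16.4% and 16.6% of all genes, with a median log2 fold change of 0.14. Without Rnf20-/- replicate 3, 11 rose and 6 fell, where 23.9% and 24.2% of all genes did. Ret, a receptor tyrosine kinase that binds clustered protocadherins, was at 1.38, 1.28 and 1.90 CPM in WT and at 5.01, 5.51 and 9.91 CPM in the knockout. It rose by 2.16 ± 0.34 on the log2 scale (SE, adjusted p = 0.0070, edgeR), and no knockout library overlapped with WT.

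Of the 8 genes on the list for the WAVE complex, to which Pcdh10, Pcdh17 and Pcdh19 bind, 3 rose (Cyfip2, Nckap1 and Abi1), 1 fell (Wasf1) and 4 were not called. Over all genes tested, 16.4% rose and 16.6% fell. Nckap1 and Abi1 were named after their values were seen. Cyfip2 rose by 1.04 ± 0.10 (SE, adjusted p = 0.0029, edgeR), from 8.70, 9.59 and 8.68 CPM in WT to 17.3, 19.6 and 18.6 CPM. Wasf1 fell by 0.85 ± 0.14 (SE, adjusted p = 0.0079, edgeR), from 45.4, 46.7 and 47.4 CPM in WT to 30.1, 26.8 and 20.5 CPM. Ptk2b, a kinase that clustered protocadherins inhibit, rose by 0.89 ± 0.12 (SE, adjusted p = 0.0047, edgeR), and N-cadherin (Cdh2), which works together with several delta protocadherins, rose by 0.63 ± 0.078 (SE, adjusted p = 0.0039, edgeR). The genotypes did not overlap in Cyfip2, Wasf1, Ptk2b or Cdh2, and their calls held with each library left out in turn.

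Levels per length from the FPKM deposited by the authors covered 7 Pcdhb and 10 non-clustered genes. The summed FPKM of the 7 Pcdhb genes was 10.6, 10.03 and 10.5 in WT and 7.15, 7.90 and 5.22 in the knockout. That of the 10 non-clustered genes was 65.7, 62.6 and 64.6 in WT and 80.6, 79.8 and 66.5 in the knockout. On this scale too every knockout library lay below WT for the Pcdhb genes and above WT for the non-clustered genes. In RPKM the separation of the non-clustered genes did not hold. Their sum over all 12 genes was 48.5, 47.5 and 46.7 RPKM in WT and 56.5, 55.4 and 45.9 RPKM in the knockout. There Rnf20-/- replicate 3 was the lowest of all 6 libraries.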

How the data were processed

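Total RNA of 3 WT and 3 Rnf20-/- samples was sequenced by the authors as paired-end, stranded mRNA libraries and aligned to GRCm38/mm10 with HISAT2 2.1.0. The authors deposited whole-number counts per gene with gene lengths, not normalized, and FPKM values calculated with Cufflinks 2.1.1 for 12633 genes. The counting program and its use of strand are not given in the sources used here. Columns with the authors' fold changes and FDR values were not used. Groups were taken from the sample titles.

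With R 4.3.3 and edgeR 4.0.16, genes were filtered by filterByExpr, normalized by TMM and compared by genotype alone with the quasi-likelihood test. The Benjamini-Hochberg adjustment ran over 13386 genes. Standard errors were obtained as the size of the log2 fold change over the root of F. Total counts were 20545442 to 21746898 per library, and PCR duplicates cannot be told apart, so floors and intervals cover counting error only. Positions came from GENCODE M21, matched by Ensembl identifier for all 32 protocadherins, and promoter windows came from RefSeq. The script was tested on simulated data. Other settings tried were other count filters, library size only, RLE size factors, edgeR's exact test, DESeq2 1.42.0, a block for the replicate number and the omission of each library in turn.

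Named genes are every called protocadherin, every non-clustered one that passed the filter, the 3 Pcdhb genes with the highest mean count, at most 5 called genes of each list with the largest change, Rnf20, and Ddx3y and Kdm5d. The members and lists were chosen with earlier results of these data known.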

Additional observations from a re-analysis of the deposited data

How the results depend on the processing

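Pcdh7, Pcdh19, Pcdh17 and Pcdh8 were called under each of the other normalizations, filters and tests at which they could be tested, and the direction of the named protocadherins reversed once, for Pcdh20 (-0.41 to 0.13 with a library left out, positive without Rnf20-/- replicate 3). The Pcdhb genes that fell numbered 0 with the replicate block and 0 to 3 with a library left out, fewest without WT replicate 2 or Rnf20-/- replicate 2. The non-clustered genes that fell numbered 1 with no filter, 1 with a CPM over 1 in 3 libraries, 1 with the replicate block and 1 to 3 with a library left out, and those that rose 2 to 5. Whether the replicate numbers pair the RNA-seq libraries is not stated, though the study's methods name paired t-tests. Same-numbered libraries had correlations of -0.066, 0.037 and 0.011 after centring within genotype. The other pairs ran from -0.069 to 0.072, so these values cannot decide whether the samples were paired. The block lowered the calls over all genes from 2218 lower and 2195 higher to 1490 and 1385. With a library left out they were 702 to 3280 lower and 694 to 3230 higher, most without Rnf20-/- replicate 3. With library size only these calls were 2684 and 1750, with the median at -0.060. The regulators that fell numbered 14 with library size only and 1 to 15 with a library left out, and those that rose 1 with DESeq2, 1 with the exact test and 0 to 3 with a library left out. The partners that fell numbered 2 with library size only, 3 with DESeq2, 2 with the exact test and 1 to 6 with a library left out, and those that rose 6 to 11. At the thresholds of the study DESeq2 and the exact test each called 1 protocadherin. In place of the summed FPKM, the deposited lengths gave 6.82 (WT) and 4.49 (knockout) RPKM for the Pcdhb genes, against 10.4 and 6.76, and 47.2 and 52.5 for the non-clustered genes, against 64.3 and 75.6. The cause of these shifts was not tested. Depth limits the 6 untested genes and Pcdh8, with 3 to 44 counts a library. It also limits Pcdhb2, Pcdhb3, Pcdhb4, Pcdhb5, Pcdhb7, Pcdhb8, Pcdhb11 and Pcdhb15, which were tested with at most 23 counts in any library.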
